A study of Homo sapiens with 4 samples.

Results

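This account covers 5 genes of cell-to-cell and cell-to-medium channels in keratinocytes, the connexin genes GJA1, GJB2, GJB5 and GJB6 and the pannexin gene PANX1. They were taken by gene symbol from the deposited table, which held 5 of 5 among its 55536 genes. RNA was sequenced from HaCaT, a spontaneously immortalised human keratinocyte line, with 2 libraries labelled TYMP overexpression and 2 labelled NC. In the first group a lentivirus was used to raise TYMP, the gene of thymidine phosphorylase, which splits thymidine into thymine and a sugar phosphate. The labels do not spell out NC, do not name the vector or promoter, and do not say whether the lines were clones or pools. Nor do they say whether replicates were separate cultures, so each test measures only the spread between these libraries, which may be technical. Cells were lysed after 48 hours, per the labels. The question set by the design text was which genes change when TYMP is overexpressed.

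Connexins are membrane proteins that assemble into rings called connexons. Connexons of neighbouring cells dock to form gap junction channels, through which ions and small molecules pass from cell to cell. Pannexins resemble connexins in shape but not in sequence, and usually act as channels between a cell and its medium, releasing ATP and other small molecules. In human epidermis connexin 43 (GJA1) is the widespread connexin, whereas connexin 26 (GJB2) is low in normal skin between the appendages and high in psoriatic and wounded skin. Inherited mutations of GJB2 cause deafness and skin disorders, and those of GJB6 (connexin 30) cause a hidrotic ectodermal dysplasia. GJB5 encodes connexin 31.1, a connexin of stratified epithelia.

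The library totals lay between 16209663 and 17000821 counts. TYMP itself had 1221 and 1100 reads in the TYMP libraries and 281 and 264 in the NC libraries, 4.30-fold higher in the edgeR fit (adjusted p = 1.48e-06). Mitochondrial genes took 5.09% and 4.46% of the counts in the TYMP libraries and 4.25% and 4.24% in the NC libraries. All 8 keratinocyte markers were tested, and their summed level lay at 10718 and 10256 CPM (counts scaled to library size with TMM factors) in the TYMP libraries and at 8485 and 7906 CPM in the NC libraries. Among them KRT5, DSG3 and KRT14 rose, 1.45-fold, 1.37-fold and 1.28-fold (edgeR adjusted p = 0.00201, 0.00484 and 0.0231). The other 5 were not called at an adjusted p under 0.05, though all 8 log2 fold changes were above 0. Rises were found for 2.09% of all tested genes. The call of KRT14 was lost when TYMP replicate 1 (adjusted p = 0.0657) or NC replicate 2 (0.157) was left out, and on FPKM (0.0971 with a pseudocount of 1). Markers of other cell types were low in every library. The 6 fibroblast markers summed to 8.86 and 6.53 CPM in the TYMP libraries and 5.29 and 4.28 CPM in the NC libraries, nearly all from COL1A1, and COL3A1 had 0 reads in all 4. The 5 melanocyte markers, PMEL and MLANA among them, summed to 2.97 and 3.59 CPM in the TYMP libraries and 1.49 and 2.83 CPM in the NC libraries. The 6 endothelial and immune markers, led by CDH5 and VWF, summed to 3.41 and 3.29 CPM in the TYMP libraries and 3.74 and 2.89 CPM in the NC libraries. The part of these marker levels in the connexin values was not tested.

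On GRCh38, with the gene models of GENCODE 29, GJA1 lies on the plus strand of chromosome 6 between 121435577 and 121449727, and PANX1 on the plus strand of chromosome 11 between 94128928 and 94181972. GJB2 occupies 20187463 to 20193010 of chromosome 13, minus strand, and GJB6 lies next to it on that strand between 20221962 and 20232395. GJB5 lies on the plus strand of chromosome 1 between 34755047 and 34758512. Each of the 4 connexin genes has its whole coding sequence in 1 exon, while that of PANX1 is split over 5. The coding sequences specify 382 residues for GJA1, 226 for GJB2, 273 for GJB5, 261 for GJB6 and 426 for PANX1. The processed pseudogene GJA1P1, a copy to which GJA1 reads could go astray, had 0 and 1 reads in the TYMP libraries and 0 and 1 in the NC libraries.

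GJB2 and GJB6 are neighbours whose transcript levels lay far apart in these cells. Of the 4 members with a promoter window, only GJA1 had an AP-1 motif. For these reasons the windows of GJB2, GJB6 and GJA1 are shown. RefSeq windows on GRCh38.p14, of 250 bases before and 50 after the start, were found for 4 of the 5 members, GJA1, GJB2, GJB6 and PANX1. Capitals mark matches on either strand to the GC box GGGCGG, the AP-1 site TGACTCA or the TATA box TATAAA. These motifs do not overlap each other in these windows. The GJB2 window is chr13:20192889-20193188 and the GJB6 window chr13:20230929-20231228, both written along the minus strand. The GJA1 window is chr6:121435396-121435695 on the plus strand.
GJB2: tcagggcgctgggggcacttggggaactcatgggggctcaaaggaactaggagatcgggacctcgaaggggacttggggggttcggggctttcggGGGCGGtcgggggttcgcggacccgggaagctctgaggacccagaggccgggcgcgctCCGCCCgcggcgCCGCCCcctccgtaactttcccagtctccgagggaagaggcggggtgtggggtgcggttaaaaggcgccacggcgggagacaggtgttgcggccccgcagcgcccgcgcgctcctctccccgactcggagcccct
GJB6: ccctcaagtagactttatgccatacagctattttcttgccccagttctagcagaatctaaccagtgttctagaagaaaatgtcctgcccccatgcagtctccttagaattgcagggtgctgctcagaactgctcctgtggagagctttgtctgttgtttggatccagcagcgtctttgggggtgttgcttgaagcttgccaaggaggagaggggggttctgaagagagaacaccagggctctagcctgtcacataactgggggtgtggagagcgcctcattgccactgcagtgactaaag
GJA1: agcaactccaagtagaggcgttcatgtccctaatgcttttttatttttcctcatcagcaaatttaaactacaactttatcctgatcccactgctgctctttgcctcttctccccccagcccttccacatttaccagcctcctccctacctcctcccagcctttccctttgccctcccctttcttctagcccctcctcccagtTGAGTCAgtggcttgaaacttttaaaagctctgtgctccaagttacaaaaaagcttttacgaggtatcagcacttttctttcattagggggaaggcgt
The GJB2 window was 71.7% G and C with 33 CpG dinucleotides, and held 3 GC boxes, starting at -155, -97 and -85 from the transcription start. The GJB6 window was 51.3% G and C with 2 CpG dinucleotides and had no match to any of the 3 motifs. That window ends at 20231228, inside the gene, which runs upstream to 20232395 in the gene models and has 15 transcripts. The GJB2 and GJA1 windows, in contrast, contain the upstream end of their genes. The GJB6 values thus describe an internal start only, and the sequence at the upstream end of GJB6 was not examined. The GJA1 window was 47.0% G and C with 3 CpG dinucleotides, and its 1 match was an AP-1 site at -48. The PANX1 window, at 62.3% G and C with 24 CpG dinucleotides, held 1 GC box at -43 from the RefSeq start. That window ends at 94128890, before the PANX1 gene begins at 94128928 in the gene models. Across all 35116 windows in the table, the median was 58.7% G and C with 14 CpG dinucleotides. A GC box was present in 45.0% of them, an AP-1 site in 4.95% and a TATA box in 11.5%. A match describes the letters of the window and is not evidence of a bound factor.

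Of the 5 members, 4 were readily detected and GJB6 was near the limit. Levels between genes are compared as FPKM, the authors' counts scaled to gene length and to the total counted reads of the library. GJA1, the widespread epidermal connexin, had 26.3 and 25.9 FPKM in the TYMP libraries and 26.3 and 26.8 FPKM in the NC libraries. GJB2 had 20.1 and 20.3 FPKM in the TYMP libraries and 20.9 and 19.8 FPKM in the NC libraries. Both genes varied by about as much within a group as between the groups. GJB5 had 30.0 and 27.5 FPKM in the TYMP libraries and 33.7 and 30.0 FPKM in the NC libraries. NC replicate 1 stood highest for GJB5 and TYMP replicate 2 lowest. PANX1, the ATP-releasing channel, had 30.5 and 30.0 FPKM in the TYMP libraries and 31.7 and 30.2 FPKM in the NC libraries. GJB6 had 0.396 and 0.201 FPKM in the TYMP libraries and 0.288 and 0.313 FPKM in the NC libraries. Those GJB6 values rest on 21 and 11 reads in the TYMP libraries and 16 and 17 in the NC libraries, so both the highest and the lowest library were TYMP libraries.

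In the TYMP libraries the order by mean FPKM was PANX1 (30.2 ± 0.359), GJB5 (28.7 ± 1.72), GJA1 (26.1 ± 0.329), GJB2 (20.2 ± 0.122) and GJB6 (0.299 ± 0.138; SD, n = 2). In the NC libraries it was GJB5 (31.8 ± 2.62), PANX1 (31.0 ± 1.08), GJA1 (26.5 ± 0.351), GJB2 (20.4 ± 0.812) and GJB6 (0.300 ± 0.0177; SD, n = 2). GJB5 and PANX1 overlapped in the NC libraries, and the gap between them in the TYMP libraries was smaller than the spread of GJB5, so their order is not settled. The other neighbours in the order did not overlap in either group. GJB2 stood 50.7-fold and 101-fold above GJB6 in the TYMP libraries and 72.8-fold and 63.3-fold above it in the NC libraries, with GJB6 resting on 11 to 21 reads. GJA1 stood 1.31-fold and 1.28-fold above GJB2 in the TYMP libraries and 1.25-fold and 1.35-fold above it in the NC libraries, so this ratio between the 2 connexins overlapped between the groups.

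**Figure D1:**
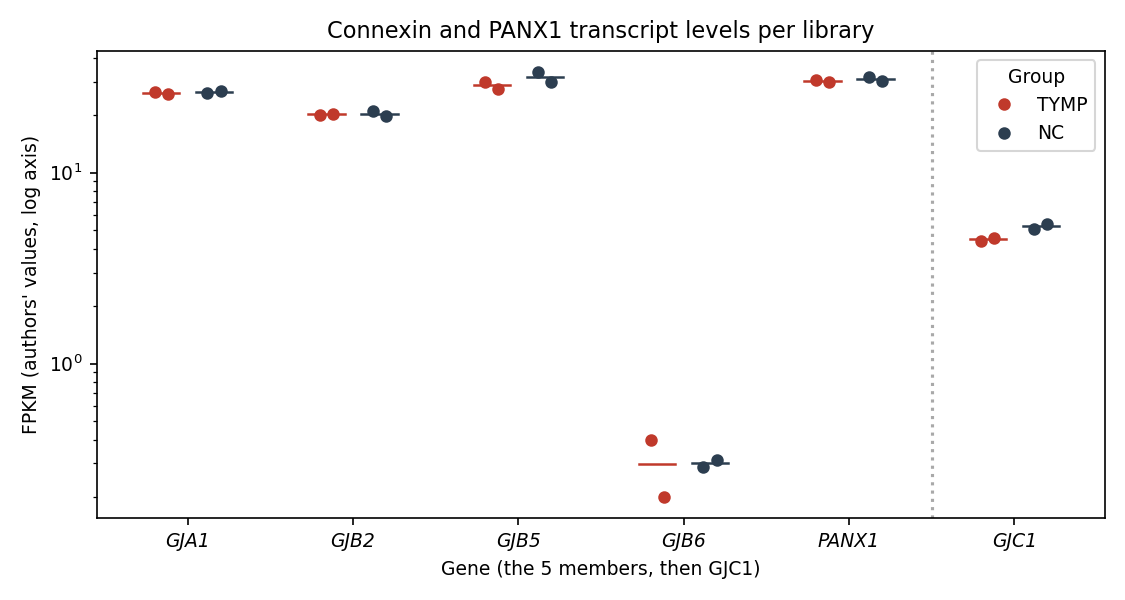
FPKM on a log axis of each library for the 5 members and, right of the dotted line, the connexin gene GJC1; points are libraries, bars are means of 2, TYMP left of NC. GJA1, GJB2, GJB5 and PANX1 lie between 19.8 and 33.7 FPKM in all 4 libraries, and GJB6 at or below 0.396.

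No difference between the groups was detected for any member. In the edgeR quasi-likelihood test, fitted on 14380 genes with Benjamini-Hochberg adjustment and a threshold of 0.05, 0 of 5 members were called, against 3.32% of all tested genes. At an unadjusted p under 0.05 the count was also 0, against 14.7% of all tested genes, and DESeq2 and limma-voom called 0. All 5 log2 fold changes were slightly below 0, as were 50.9% of those of all tested genes. The median over the members was -0.04, against -0.005 over all tested genes. The median size of a log2 fold change, sign set aside, was 0.04 over the members and 0.148 over all tested genes.

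GJA1 rested on 1449 and 1469 reads in the TYMP libraries and 1516 and 1510 in the NC libraries. It averaged 88.1 ± 2.41 CPM in the TYMP libraries and 90.5 ± 0.680 CPM in the NC libraries (SD, n = 2 each). Its log2 fold change was -0.04 ± 0.089 (SE), and the 95% interval of the fold ran from 0.851 to 1.11 (edgeR adjusted p = 0.897). The GJA1 libraries of the groups did not overlap, at 89.8 and 86.4 CPM in the TYMP libraries against 90.1 and 91.0 CPM in the NC libraries, which was so for 43.6% of all tested genes and for 1 of the 5 members. On the FPKM given above, which carry no TMM factor, the GJA1 libraries of the groups did overlap. GJB2, with 806 and 839 reads in the TYMP libraries and 881 and 814 in the NC libraries, averaged 49.6 ± 0.431 CPM in the TYMP libraries and 50.7 ± 2.31 CPM in the NC libraries. Its log2 fold change was -0.03 ± 0.105 (SE), with an interval of the fold of 0.837 to 1.15 (edgeR adjusted p = 0.937). The connexin of psoriatic epidermis thus showed no detectable difference between the groups.

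GJB5 had the lowest log2 fold change of the members, -0.16 ± 0.117 (SE), with an interval of the fold of 0.748 to 1.06 (edgeR adjusted p = 0.592). It had 658 and 624 reads in the TYMP libraries and 776 and 675 in the NC libraries. It averaged 38.7 ± 2.89 CPM in the TYMP libraries and 43.4 ± 3.83 CPM in the NC libraries (SD, n = 2 each), and the libraries of the groups overlapped. Without NC replicate 1 its log2 fold change was -0.07, and without NC replicate 2 it was -0.26. PANX1, with 1410 and 1431 reads in the TYMP libraries and 1538 and 1431 in the NC libraries, averaged 85.8 ± 2.28 CPM in the TYMP libraries and 88.8 ± 3.61 CPM in the NC libraries. Its log2 fold change was -0.05 ± 0.091 (SE), with an interval of the fold of 0.843 to 1.11 (edgeR adjusted p = 0.866).

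GJB6 gave a log2 fold change of -0.03 ± 0.485 (SE), with an interval of the fold of 0.474 to 2.03 (edgeR adjusted p = 0.990). A doubling of GJB6 was therefore within the interval, and at this depth a difference of that size could not be detected. Its log2 fold change moved to -0.60 without TYMP replicate 1 and to 0.39 without TYMP replicate 2. For the other 4 members the interval lay wholly inside a 1.5-fold change in either direction, as it did for 58.7% of all tested genes. A p above the threshold does not show that the levels were equal, and these intervals give the sizes that the 4 libraries leave possible.

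**Figure D2:**
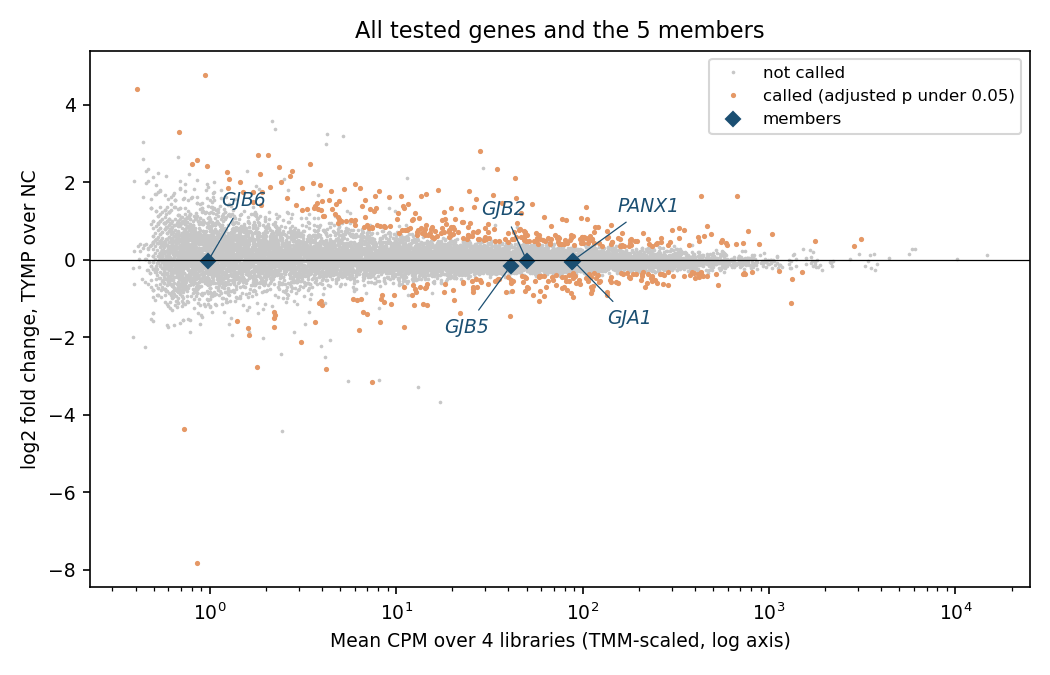
log2 fold change of TYMP over NC against the mean CPM of 4 libraries (log axis) for 14380 tested genes; orange points passed an adjusted p of 0.05 and blue diamonds are the members. The members sit at the centre of the cloud, with GJB6 near 1 CPM and the other 4 between about 41 and 89 CPM.

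The table holds 21 connexin genes, of which 4 are members. Summed over all connexins, the level was 126 and 120 FPKM in the TYMP libraries and 136 and 127 FPKM in the NC libraries. Both TYMP libraries lay below both NC libraries, but narrowly, with TYMP replicate 1 at 126.28 and NC replicate 2 at 127.03 FPKM, without TMM factors. On TMM-scaled CPM the groups did not overlap for 43.6% of all tested genes. No test was run on the summed connexin FPKM.

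GJA1 made up 21.2% ± 0.548 of the summed connexin FPKM in the TYMP libraries and 20.2% ± 1.25 in the NC libraries (SD, n = 2 each). The share of GJB2 was 16.4% ± 0.731 in the TYMP libraries and 15.5% ± 0.141 in the NC libraries. GJB5 held 23.4% ± 0.500 in the TYMP libraries and 24.2% ± 0.812 in the NC libraries, while GJB6 held 0.241% ± 0.103 and 0.229% ± 0.0246. The 4 member connexins together held 60.8% and 61.8% in the TYMP libraries and 59.6% and 60.5% in the NC libraries. The make-up of the connexin pool thus moved by about 1 percentage point or less for each member. These shares depend on the gene lengths behind the FPKM, which for GJB5 was 1355 bases and for GJA1 3395 bases.

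**Figure D3:**
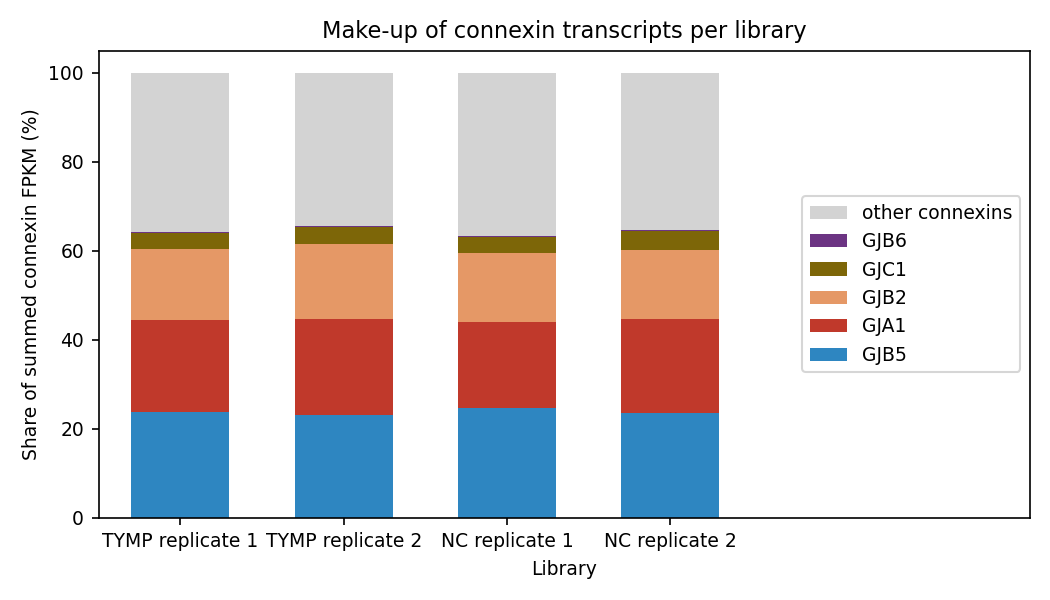
Share of the summed connexin FPKM in each library, TYMP libraries left, in percent. GJB5, GJA1, GJB2 and the pooled other connexins fill most of every bar, in nearly the same proportions in all 4 libraries.

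The other connexins gave no called difference. Of the 17 other connexins, 6 could be tested and 0 were called by edgeR, DESeq2 or limma-voom; 1 had an unadjusted p under 0.05. This was GJC1, which encodes connexin 45, at 38.9 ± 0.395 CPM in the TYMP libraries and 45.8 ± 1.70 CPM in the NC libraries (SD, n = 2 each; log2 fold change -0.24 ± 0.108 SE, edgeR adjusted p = 0.335). GJA3, best known from the lens and the neighbour of GJB2 on its other side, had 9 and 4 reads in the TYMP libraries and 17 and 13 in the NC libraries (log2 fold change -1.17, edgeR adjusted p = 0.401). Over these 6 genes the log2 fold changes had a median of 0.04. Of the 17 genes, 7 had 0 reads in all 4 libraries, GJA4, GJA10, GJB1, GJD2, GJD4 and GJE1 among them, where a count of 0 allows up to between 0.176 and 0.185 CPM of the library total without TMM factors (3 counts per library, for counting error only). GJA5, GJA9, GJB7 and GJC3 had at most 4 reads in any library. PANX3 also had 0 reads in all 4, and PANX2 had 74 and 44 reads in the TYMP libraries and 71 and 33 in the NC libraries.

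The genes named here that lie beside the members gave no called difference either. C1orf94, a protein-coding gene near GJB5, had 0 reads in every library. CRYL1, beyond GJB6, had 57 and 40 reads in the TYMP libraries and 56 and 37 in the NC libraries (log2 fold change 0.08, edgeR adjusted p = 0.949). GJA1 is flanked by TBC1D32 and HSF2, with log2 fold changes of -0.12 and -0.05 (edgeR adjusted p = 0.851 and 0.921). PANX1 is flanked by HEPHL1, at -0.33 (edgeR adjusted p = 0.524), and IZUMO1R, with 0 reads.

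Among genes of proteins that carry, anchor or remove connexins, 1 fell. All 12 genes of this list were tested, and 1 fell, 0 rose and 11 were not called, with a median log2 fold change of -0.08. Falls were found for 1.23% of all tested genes. At an unadjusted p under 0.05 the count was 4, all with lower values in the TYMP libraries, against 14.7% of all tested genes in either direction. Of the 12 log2 fold changes, 9 were below 0, as were 50.9% of those of all tested genes. The 1 was CAV1, which encodes caveolin-1, a membrane scaffold found with connexin 43. CAV1 had 1006 and 1016 CPM in the TYMP libraries and 1224 and 1276 CPM in the NC libraries. The groups did not overlap, and the log2 fold change was -0.31 ± 0.072 (SE; edgeR adjusted p = 0.0369). The call of CAV1 was lost when TYMP replicate 1 (adjusted p = 0.233), TYMP replicate 2 (0.156) or NC replicate 2 (0.107) was left out, and on FPKM (0.128 and 0.123 with pseudocounts of 1 and 0.1). TJP1, which encodes the scaffold ZO-1 that binds the tail of connexin 43, was picked out after its values were seen. It had 107 and 88 reads in the TYMP libraries and 135 and 157 in the NC libraries. The groups did not overlap, and the log2 fold change was -0.57 ± 0.207 (SE). It was 1 of the 4 with an unadjusted p under 0.05 and was not called (edgeR adjusted p = 0.199).

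Of the 12 kinases that phosphorylate connexins, 11 were tested and 0 were called by edgeR, DESeq2 or limma-voom, with 0 at an unadjusted p under 0.05 and a median log2 fold change of 0.02. PRKCD, a protein kinase C, had the smallest p (log2 fold change 0.28 ± 0.144 SE, edgeR adjusted p = 0.402), followed by AKT1 (-0.19 ± 0.110 SE, edgeR adjusted p = 0.465). SRC, the kinase whose action on connexin 43 closes its channels, was singled out after its values were seen. It had 126 and 17 reads in the TYMP libraries and 20 and 124 in the NC libraries, so the libraries of each group lay far apart and its interval was too wide to read. Of 13 other large-pore channel genes, 7 were tested and 0 were called by edgeR, DESeq2 or limma-voom, with 0 at an unadjusted p under 0.05 and a median log2 fold change of -0.004. The volume-regulated anion channel subunit LRRC8D had 141 and 130 CPM in the TYMP libraries and 124 and 122 CPM in the NC libraries (log2 fold change 0.14 ± 0.085 SE, edgeR adjusted p = 0.520). LRRC8E, another subunit of that channel, had 8 and 6 reads in the TYMP libraries and 17 and 10 in the NC libraries (log2 fold change -0.92 ± 0.591 SE, edgeR adjusted p = 0.535).

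Downstream of PANX1, released nucleotides act on P2 receptors, and 2 of these rose. Of 15 listed P2 receptors, 7 were tested, of which 2 rose, 0 fell and 5 were not called, with a median log2 fold change of 0.21. Rises were found for 2.09% of all tested genes. P2RY2, a receptor for ATP and UTP, had 127 and 118 CPM in the TYMP libraries and 93.2 and 88.8 CPM in the NC libraries. It was 1.35-fold higher (log2 fold change 0.43 ± 0.088 SE, edgeR adjusted p = 0.0167). P2RY6, a receptor that answers to UDP more than to ATP, had 19.3 and 13.8 CPM in the TYMP libraries and 8.26 and 7.78 CPM in the NC libraries. It was 2.06-fold higher (log2 fold change 1.04 ± 0.187 SE, edgeR adjusted p = 0.00691), and neither receptor overlapped between the groups. The call of P2RY2 was lost when TYMP replicate 1 was left out (adjusted p = 0.163), and on FPKM with a pseudocount of 1 neither was called (0.0692 for P2RY2 and 0.165 for P2RY6). P2RX7, the ATP-gated channel often studied with PANX1, was picked out after its values were seen; it had 7 and 2 reads in the TYMP libraries and 7 and 0 in the NC libraries and was not tested.

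**Figure D4:**
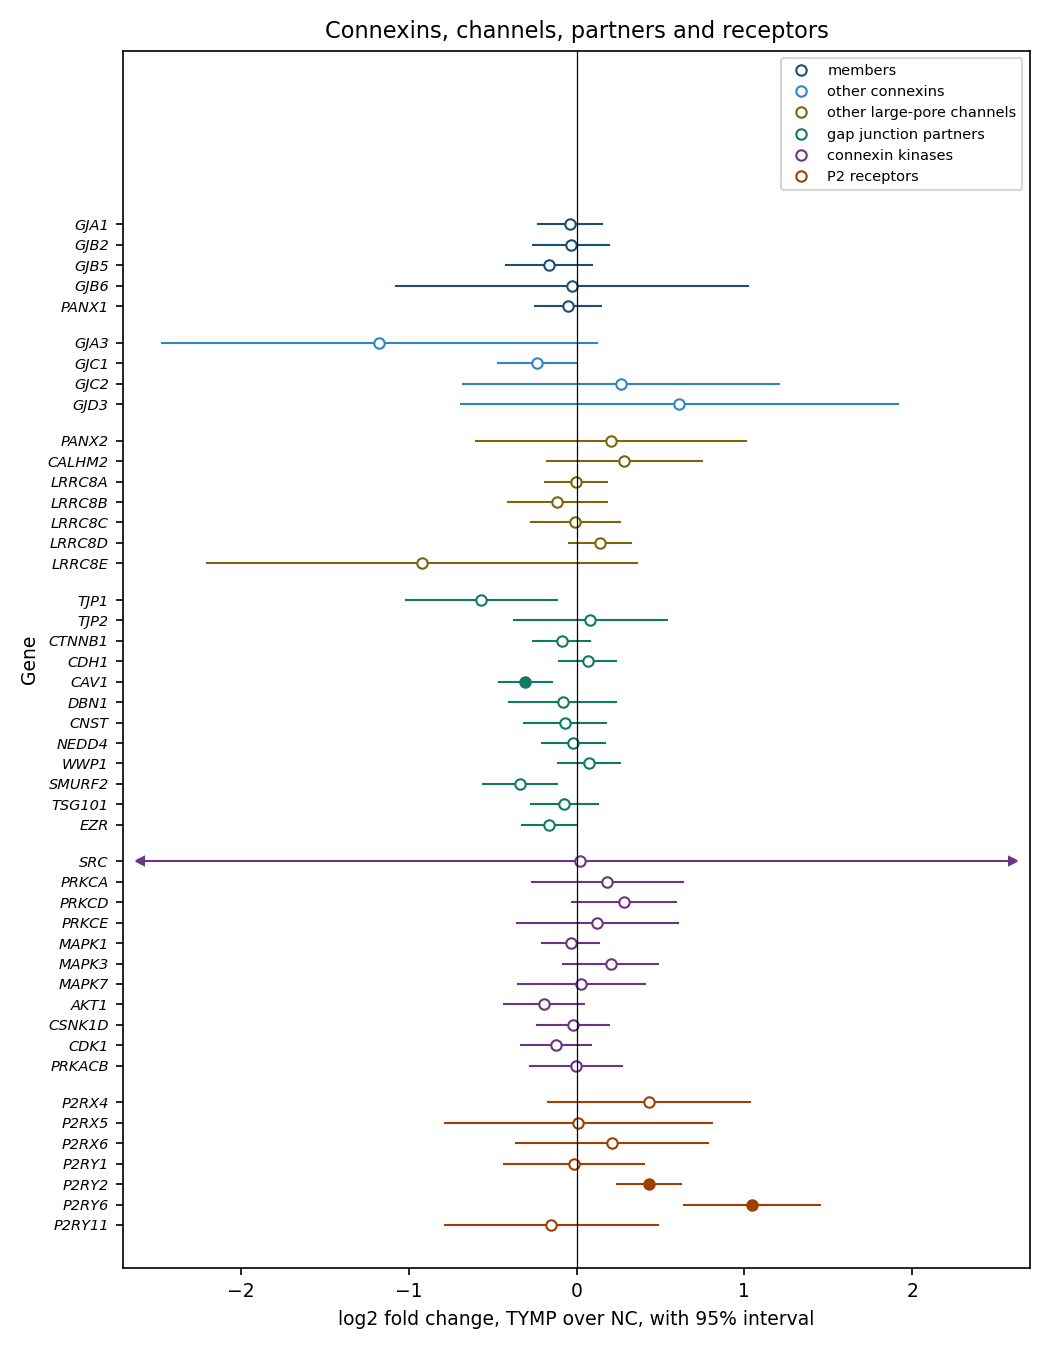
log2 fold change of TYMP over NC with its 95% interval for tested genes of the 6 lists, in list order; filled points passed an adjusted p of 0.05 and arrows mark an interval that runs past the axis. The filled points are CAV1, below 0, and P2RY2 and P2RY6, above 0.

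The genes most like each member across the 4 libraries were sought by the distance between log2 CPM profiles centred on their means, among 9881 genes of at least 5 CPM for the members above that level. RFC4 and DNAJC21 lay nearest to GJA1 (distances 0.00644 and 0.00918), and PSRC1 was among the nearest to GJB2 (0.00874). DVL1 and FARSA lay nearest to GJB5 (0.0129 and 0.0139), and XRCC6 and ERP29 nearest to PANX1 (0.00566 and 0.00690). Flat profiles are common: 1058 genes lay within 0.1 of GJA1, 1006 of GJB2, 467 of GJB5 and 1067 of PANX1. No gene lay that near to GJB6, whose closest were PYCARD (0.105) and NT5C (0.194).

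**Figure D5:**
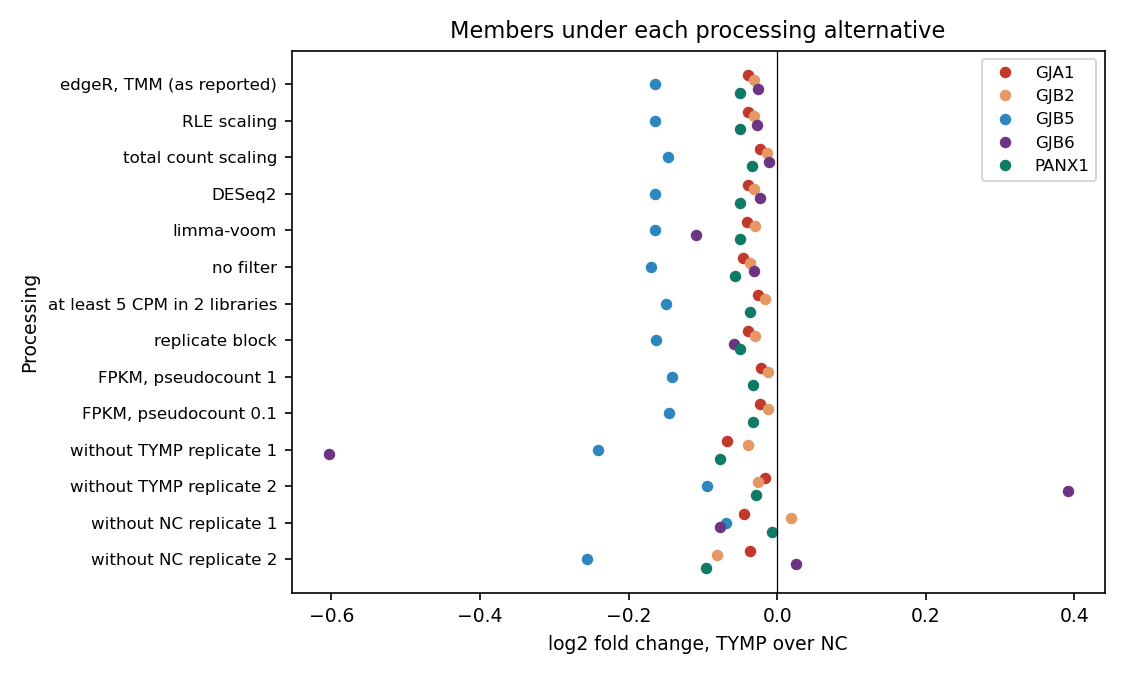
log2 fold change of TYMP over NC for the 5 members under each processing, from the reported fit at the top to the fits without 1 library. GJA1, GJB2, GJB5 and PANX1 stay between -0.26 and 0.02, while GJB6 moves between -0.60 and 0.39.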

How the data were processed

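Polyadenylated RNA of 4 HaCaT libraries was prepared with a NEBNext Ultra kit, per the labels' protocols. The authors' deposited table gives raw read counts and FPKM per Ensembl gene, per the file headers. HISAT2, HTSeq 0.13.5 and GRCh38 are named, without roles, in the submitters' processing notes; the sources used here give no strand setting and no annotation release. Each deposited FPKM above 0 equalled the count over a whole gene length and the column total (87668 of 87668 values, tolerance 0.001 bases).

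Counts were tested with edgeR 4.0.16 in R 4.3.3 (filterByExpr, TMM, robust quasi-likelihood F test, group as the only term, Benjamini-Hochberg over 14380 genes), a procedure tested on simulated data. Standard errors are the log2 fold change over the root of F, and 95% intervals use the fit's degrees of freedom. The 2 libraries of a group differed beyond sampling noise (chi-square over its degrees of freedom 5.84 for TYMP and 7.39 for NC). Members and lists were chosen with earlier results of these data known. Named genes were the members, their nearest protein-coding neighbours, per list up to 4 called genes or else the 2 of smallest p, untested connexins and pannexins, and the 2 genes of nearest profile per member. SRC, TJP1, P2RX7 and genes behind counts of 5 or fewer were named outside this rule. Alternatives were DESeq2 1.42.0, limma 3.58.1 (voom, and log2 FPKM with pseudocounts of 1 and 0.1 at a mean FPKM of at least 1), other scalings and filters, the replicate number as a block, and each library left out. Values of some listed genes are left out of this account.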

Additional observations from a re-analysis of the deposited data

How the results depend on the processing

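Of 62 values of the members under 13 alternatives, 0 were called; DESeq2 gave no adjusted p for GJB6, and 3 values could not be had because GJB6 failed the filters of 5 CPM and of FPKM. Leaving out 1 library, the log2 fold change ranged from -0.07 to -0.02 for GJA1, -0.081 to 0.0188 for GJB2, -0.26 to -0.07 for GJB5, -0.60 to 0.39 for GJB6 and -0.10 to -0.01 for PANX1. The sign turned for GJB2 without NC replicate 1, and for GJB6 without TYMP replicate 2 and without NC replicate 2 (0.02). The count of called genes was 478, against 732 with no filter, and 165 and 170 on FPKM with pseudocounts of 1 and 0.1. Counts not divided by length put GJA1 at 27.2%, GJB5 at 12.5% and GJB6 at 0.298% of connexin counts, against 20.7%, 23.8% and 0.235% of FPKM.

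The replicate number does not mark a shared culture or day in the labels, and with 2 pairs the correlation of same-numbered deviations (0.268 over genes) is only a hint from the data. With the replicate number as a block, 2023 of 14380 tested genes were called, 979 higher and 1044 lower. Under the block 0 of 5 members were called (lowest edgeR adjusted p = 0.188, GJB5). Called under it were 2 of 6 other connexins (both lower, GJC1 among them) and 3 of 12 partners (CAV1, EZR and SMURF2, all lower). Of 11 kinases, 1 was called (AKT1, lower). No list was tested as a whole.

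The 1 called partner became 0 on FPKM with either pseudocount and 0 to 2 without 1 library. The 2 called receptors became 0 on FPKM and 1 to 2 without 1 library. The cause was not tested. GJB6 rested on 11 to 21 reads per library.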
